A study of Mus musculus with 16 samples.

Results

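A set of 9 genes of the retinoid pathway, Stra6, Lrat, Dhrs9, Aldh1a1, Aldh1a2, Aldh1a3, Crabp2, Gprc5a and Cyp26b1, was followed by symbol through an RNA-seq table of mouse ear skin. All 9 were present among the 45777 genes listed, and all 9 were among the 19915 genes with enough counts to be tested. The mice were C57BL/6 WT animals. Both groups received MC903 (calcipotriol, a vitamin D analogue that induces dermatitis resembling atopic dermatitis) on both ears for 10 days, each day 20 µL of a 50 µM solution in ethanol. The anti-OSM group (3 libraries) was also given an antibody against the cytokine oncostatin M, 20 µg per mouse into the skin on alternate days. The anti-Ly6G group (3 libraries) was instead given an antibody against the neutrophil surface protein Ly6G, 200 µg per mouse into the peritoneum 2 days before MC903 and 1 and 4 days after it. The antibody, its dose, its route and its timing cannot be told apart, and no isotype antibody, sex, age, day or batch is named for either group. The labels also describe 5 control libraries and 5 given MC903 alone, which were not analysed here, so these values do not say which antibody group lay nearer to MC903 skin or to normal skin.

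Retinol enters cells through receptors such as STRA6, is stored as retinyl ester by LRAT, and is oxidised first to retinaldehyde by short-chain dehydrogenases and then to retinoic acid by the ALDH1A enzymes. CRABP2 carries retinoic acid towards its nuclear receptors, which act on DNA as pairs with RXR, the same partner that the vitamin D receptor uses. CYP26 enzymes break retinoic acid down, and in skin the balance of these steps is known to affect keratinocyte differentiation, sebaceous glands and the hair follicle.

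These 9 genes were chosen with their anti-OSM and anti-Ly6G values in view, so their differences are given as descriptions, without a test. Lrat, Crabp2, Gprc5a and Cyp26b1 were lower with anti-OSM in every library than in any anti-Ly6G library. The group ranges of the other 5, Stra6, Dhrs9, Aldh1a1, Aldh1a2 and Aldh1a3, overlapped. By the edgeR quasi-likelihood fit over all genes with Benjamini-Hochberg adjustment at 0.05, 4 members lay on the lower side of the threshold, 0 on the higher side and 5 on neither. Over all genes tested, 12.1% were called, 5.81% higher and 6.27% lower with anti-OSM. Ranges of CPM (counts scaled to library size, with TMM factors) that did not overlap, with anti-OSM lower, were found for 4 of the 9 members and for 17.3% of all genes tested. Since the members were selected on this contrast, nothing is read from either count. The labels do not say that the replicates were separate mice, so every error here is the spread between these libraries.

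Depth was 52163179 to 59063578 counts with anti-OSM, against 59381146 to 64122588 with anti-Ly6G, so that 3 counts correspond to 0.0468 to 0.0575 CPM. The first principal component (43.6% of the variance) placed the anti-OSM libraries between -34.7 and -26.6 and anti-Ly6G replicates 1 and 2 at 38.6 and 39.3. Anti-Ly6G replicate 3 was at 14.9, between them but nearer its own group. The tissue label was checked on basal keratinocyte genes (Krt5, Krt14, Krt15, Col17a1, Itgb4 and Trp63), whose TPM (transcript abundance scaled for length and depth) summed to 9803 to 12030 with anti-OSM, against 15120 to 15310 with anti-Ly6G. In bulk tissue, fewer cells of a type and less RNA per cell cannot be told apart, which holds for each gene below.

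**Figure D1:**
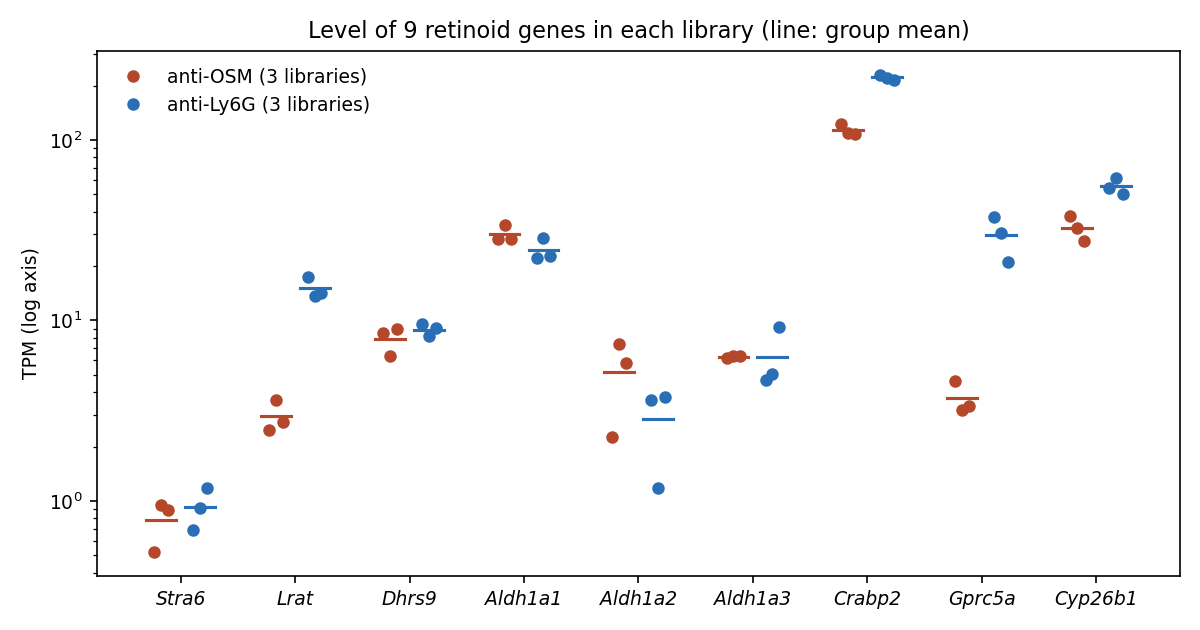
TPM (log axis) of the 9 retinoid genes in each library, anti-OSM points to the left and anti-Ly6G points to the right for each gene, with lines at the group means of 3 libraries. Lrat, Crabp2, Gprc5a and Cyp26b1 show separate groups, and the points of the other 5 genes overlap.

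The uptake receptor gene Stra6 (gene ID 20897, chromosome 9, 58063793 to 58154004, GRCm38) was the least abundant of the 9 in both groups. It had 41, 84 and 77 counts with anti-OSM, against 65, 77 and 111 with anti-Ly6G, or 0.523, 0.952 and 0.892 TPM with anti-OSM against 0.687, 0.913 and 1.18 TPM with anti-Ly6G. The lowest library was anti-OSM replicate 1 and the highest anti-Ly6G replicate 3, and the others were mixed between the groups. The log2 fold change, anti-OSM over anti-Ly6G, was -0.20 (SE 0.28, 95% interval -0.85 to 0.44), and it was 0.02 without anti-OSM replicate 1.

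Lrat (gene ID 79235, chromosome 3, 82892582 to 82903974, minus strand), which encodes the enzyme that esterifies retinol for storage, was much less abundant with anti-OSM. It had 336, 557 and 410 counts with anti-OSM, against 2804, 2008 and 2317 with anti-Ly6G. In TPM the values were 2.49, 3.62 and 2.73 with anti-OSM, against 17.3, 13.7 and 14.2 with anti-Ly6G. The highest anti-OSM library, replicate 2, was far under the lowest anti-Ly6G library, also replicate 2, so the groups stood well apart. Mean levels were 7.65 ± 1.60 CPM with anti-OSM, against 38.6 ± 6.23 CPM with anti-Ly6G (SD, n = 3 each), a log2 fold change of -2.33 (SE 0.17, 95% interval -2.73 to -1.94), or 5.04-fold lower. Leaving out any 1 library gave -2.51 to -2.20.

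Promoter sequence was at hand in RefSeq (GRCm38.p6) for 6 of the 9 members (Lrat, Dhrs9, Stra6, Cyp26b1, Aldh1a1 and Aldh1a2), in 10 windows of 300 bases that run from 250 bases before to 50 after a start site. Lrat and Cyp26b1, both lower with anti-OSM, are shown here with Dhrs9 and Aldh1a1, whose ranges overlapped. Each is given as the 250 bases before the start site, 5′ to 3′ on the gene's strand. The windows of Stra6 and Aldh1a2, whose ranges also overlapped, and a second window of Aldh1a1 are not printed. The printed genes were picked with their values known, so nothing is read from comparing their motifs. Capitals mark matches to AGGTCA (a nuclear receptor core site), TGANTCA (the AP-1 site) or TATAAA, on either strand. The windows are Lrat at chr3:82903975-82904224 (minus), Cyp26b1 at chr6:84593811-84594060 (minus), Dhrs9 at chr2:69380212-69380461 (plus) and Aldh1a1 at chr19:20492333-20492582 (plus).
Lrat: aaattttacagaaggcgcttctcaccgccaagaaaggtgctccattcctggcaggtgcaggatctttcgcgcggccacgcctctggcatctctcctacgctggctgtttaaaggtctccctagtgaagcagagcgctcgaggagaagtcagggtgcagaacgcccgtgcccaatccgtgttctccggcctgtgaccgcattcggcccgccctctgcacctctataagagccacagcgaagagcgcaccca
Cyp26b1: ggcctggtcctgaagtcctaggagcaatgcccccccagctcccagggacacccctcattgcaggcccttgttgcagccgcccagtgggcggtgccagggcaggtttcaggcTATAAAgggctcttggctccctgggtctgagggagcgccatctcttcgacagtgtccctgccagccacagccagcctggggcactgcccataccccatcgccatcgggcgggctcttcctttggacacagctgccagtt
Dhrs9: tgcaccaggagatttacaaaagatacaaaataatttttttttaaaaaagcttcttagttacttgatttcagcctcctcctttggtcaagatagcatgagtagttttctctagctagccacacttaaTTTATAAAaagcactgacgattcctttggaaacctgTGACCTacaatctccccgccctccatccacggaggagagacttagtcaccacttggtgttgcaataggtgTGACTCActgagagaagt
Aldh1a1: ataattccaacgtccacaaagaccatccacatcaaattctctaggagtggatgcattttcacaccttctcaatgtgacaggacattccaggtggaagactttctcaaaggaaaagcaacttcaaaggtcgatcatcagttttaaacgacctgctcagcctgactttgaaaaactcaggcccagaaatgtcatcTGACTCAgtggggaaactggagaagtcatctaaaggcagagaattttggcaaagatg

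The search also covered GGTTCA, the STAT site TTCNNNGAA, and direct repeats, spaced by 1 to 5 bases, in which each copy was AGGTCA or else AGTTCA or else GGGTCA or else GGTTCA, the arrangement that retinoid and vitamin D receptor pairs are known to bind. None of the 10 member windows held any of these. The Lrat window held no match to any motif searched. Cyp26b1 held TATAAA 139 to 134 bases before its start site. Dhrs9 held AGGTCA on the opposite strand 88 to 83 bases before, TGANTCA 18 to 12 bases before, and a pair of overlapping TATAAA matches from 124 and 122 bases before, 1 on each strand. Aldh1a1 held TGANTCA 57 to 51 bases before its start site. A second Aldh1a1 window and those of Stra6 and Aldh1a2 had no match. For scale, AGGTCA was present in 16.3% of 32851 RefSeq windows of this length, GGTTCA in 10.4%, TGANTCA in 7.81%, TTCNNNGAA in 8.3% and TATAAA in 13.6%, while direct repeats were in 0.222%, 0.268%, 0.0396%, 0.0822% and 0.0974% for spacings of 1, 2, 3, 4 and 5. A match is a description of these letters only.

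Dhrs9 (gene ID 241452, chromosome 2, 69380462 to 69403086) encodes a short-chain dehydrogenase whose human and rat forms oxidise retinol to retinaldehyde. It had 606, 519 and 705 counts with anti-OSM, against 812, 628 and 776 with anti-Ly6G, which are 8.50, 6.39 and 8.92 TPM with anti-OSM against 9.50, 8.15 and 9.04 TPM with anti-Ly6G. Anti-OSM replicate 2 was lowest, and anti-OSM replicates 1 and 3 lay within the anti-Ly6G range. The log2 fold change was -0.14 (SE 0.14, 95% interval -0.47 to 0.18), and -0.25 to -0.01 without any 1 library.

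The 3 retinaldehyde dehydrogenases, which make retinoic acid, each had overlapping groups. Aldh1a1 (gene ID 11668, chromosome 19, 20492583 to 20643463) had 28.4, 33.6 and 28.4 TPM with anti-OSM, against 22.1, 28.6 and 22.8 TPM with anti-Ly6G. Anti-Ly6G replicate 2 reached just above anti-OSM replicates 1 and 3, and the other anti-Ly6G libraries were below all anti-OSM libraries. The log2 fold change from counts was 0.21 (SE 0.10, 95% interval -0.02 to 0.45), with 1777, 2259 and 1877 counts with anti-OSM, against 1715, 2006 and 1812 with anti-Ly6G. The ratio of counts to TPM, which depends on the transcript length behind the authors' TPM, was 0.11 lower with anti-OSM than with anti-Ly6G for Aldh1a1 on the log2 scale, so its TPM differ more than its counts. Aldh1a7, a close paralog in mice that may share reads with Aldh1a1, had 6.01, 4.73 and 3.85 TPM with anti-OSM against 4.78, 4.53 and 5.75 TPM with anti-Ly6G, and both values are uncertain for that reason.

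Aldh1a2 (gene ID 19378, chromosome 9, 71215789 to 71296243), the enzyme gene that dendritic cells and fibroblasts are known to use, was the most variable member. It had 129, 485 and 368 counts with anti-OSM, against 251, 73 and 259 with anti-Ly6G, or 2.25, 7.43 and 5.79 TPM with anti-OSM against 3.65, 1.17 and 3.74 TPM with anti-Ly6G. Anti-OSM replicate 1 lay inside the anti-Ly6G range, and the highest library was 3.30 times the lowest with anti-OSM, against 3.19 times with anti-Ly6G. The log2 fold change of 0.87 had an SE of 0.57 and a 95% interval of -0.49 to 2.23, which spans 0 widely. It was 0.49 without anti-Ly6G replicate 2 and 1.23 without anti-OSM replicate 1, so single libraries moved it.

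Aldh1a3 (gene ID 56847, chromosome 7, 66390892 to 66427477, minus strand) had 6.22, 6.32 and 6.32 TPM with anti-OSM, against 4.68, 5.04 and 9.22 TPM with anti-Ly6G. The anti-OSM libraries were nearly equal, anti-Ly6G replicates 1 and 2 were below them and anti-Ly6G replicate 3 above. Counts were 535, 619 and 603 with anti-OSM, against 482, 469 and 955 with anti-Ly6G, and the log2 fold change was 0.02 (SE 0.24, 95% interval -0.54 to 0.58). Without anti-Ly6G replicate 3 it was 0.39, and without anti-Ly6G replicate 1 it was -0.14, so its sign and size rested on single libraries.

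Crabp2 (gene ID 12904, chromosome 3, 87948693 to 87953372), the gene of the protein that delivers retinoic acid to its receptors, was the most abundant member in both groups. It had 2801, 2840 and 2711 counts with anti-OSM, against 6270, 5447 and 5904 with anti-Ly6G. In TPM these were 123, 109.6 and 107 with anti-OSM, against 229.8, 221 and 216 with anti-Ly6G. Libraries of a group were close to each other, and every anti-OSM library was well under every anti-Ly6G library. The mean was 49.4 ± 2.90 CPM with anti-OSM, against 95.5 ± 5.86 CPM with anti-Ly6G (SD, n = 3 each), and the log2 fold change was -0.95 (SE 0.07, 95% interval -1.12 to -0.78), or -1.00 to -0.90 without any 1 library.

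Gprc5a (gene ID 232431, chromosome 6, 135065662 to 135084709), an orphan receptor gene first found as induced by retinoic acid, had the largest difference of the 9. Counts were 244, 190 and 194 with anti-OSM, against 2346, 1734 and 1334 with anti-Ly6G, which are 4.61, 3.18 and 3.34 TPM with anti-OSM against 37.3, 30.6 and 21.1 TPM with anti-Ly6G. All anti-OSM libraries were low, and anti-Ly6G replicate 3 was the lowest of its group, as on the first principal component. The mean was 3.74 ± 0.751 CPM with anti-OSM, against 29.5 ± 8.77 CPM with anti-Ly6G (SD, n = 3 each), a log2 fold change of -2.98 (SE 0.25, 95% interval -3.56 to -2.40). Without any 1 library it was -3.19 to -2.75, the largest difference being without anti-Ly6G replicate 3.

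Cyp26b1 (gene ID 232174, chromosome 6, 84571414 to 84593908, minus strand), which encodes an enzyme that breaks retinoic acid down, was also lower with anti-OSM. It had 7777, 8337 and 6292 counts with anti-OSM, against 14601, 13894 and 13672 with anti-Ly6G, or 37.8, 32.5 and 27.5 TPM with anti-OSM against 54.3, 61.6 and 50.1 TPM with anti-Ly6G. No anti-OSM library reached the lowest anti-Ly6G library. The mean was 132.6 ± 19.6 CPM with anti-OSM, against 228.8 ± 14.4 CPM with anti-Ly6G (SD, n = 3 each), a log2 fold change of -0.79 (SE 0.11, 95% interval -1.04 to -0.53), and -0.86 to -0.67 without any 1 library.

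**Figure D2:**
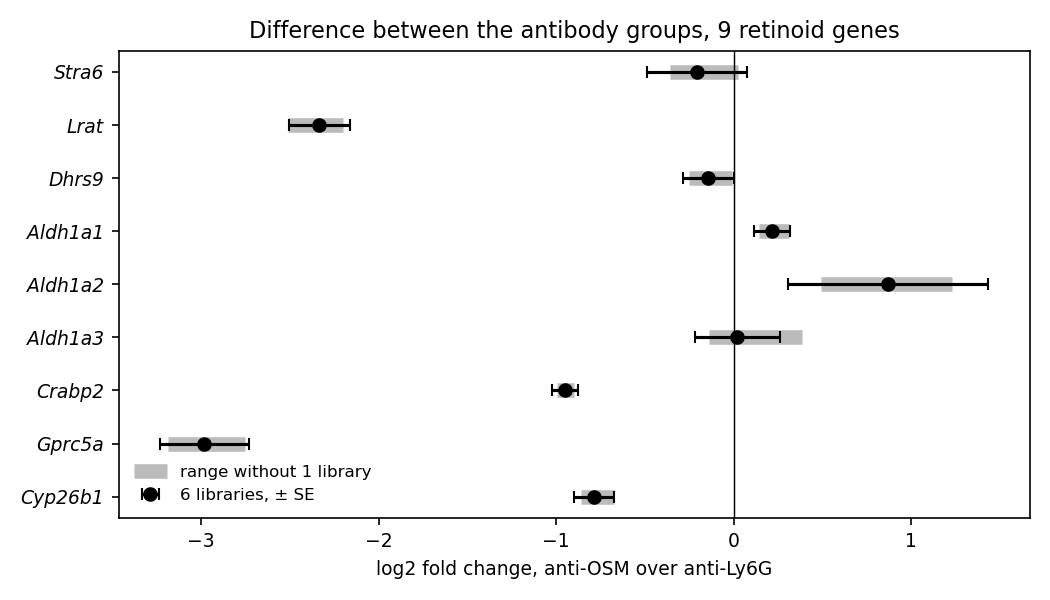
Log2 fold change of anti-OSM over anti-Ly6G for the 9 retinoid genes (x axis) from the edgeR fit of 6 libraries, with bars of 1 SE, and in grey the range when 1 library was left out. Lrat (-2.33), Gprc5a (-2.98), Crabp2 (-0.95) and Cyp26b1 (-0.79) lie left of 0 throughout, while the grey ranges of Stra6 and Aldh1a3 cross 0.

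Ordered by mean TPM, the genes took different places in the groups. With anti-OSM the order was Crabp2 (113 TPM), Cyp26b1 (32.6), Aldh1a1 (30.1), Dhrs9 (7.94), Aldh1a3 (6.29), Aldh1a2 (5.16), Gprc5a (3.71), Lrat (2.94) and Stra6 (0.789). Cyp26b1 and Aldh1a1 overlapped in that order, as did each neighbouring pair from Aldh1a3 to Lrat. With anti-Ly6G it was Crabp2 (222 TPM), Cyp26b1 (55.4), Gprc5a (29.7), Aldh1a1 (24.5), Lrat (15.1), Dhrs9 (8.90), Aldh1a3 (6.31), Aldh1a2 (2.86) and Stra6 (0.928). Gprc5a and Aldh1a1 overlapped there, as did Dhrs9 and Aldh1a3, and Aldh1a2 and Stra6. Gprc5a and Lrat were thus both below Aldh1a3 and Aldh1a2 with anti-OSM, by means whose libraries overlapped from neighbour to neighbour, and both above those genes with anti-Ly6G.

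The balance between synthesis and breakdown transcripts was set out per library, a ratio chosen with the values known. Aldh1a1, Aldh1a2 and Aldh1a3 summed to 36.9, 47.4 and 40.5 TPM with anti-OSM, against 30.5, 34.8 and 35.8 TPM with anti-Ly6G. Divided by Cyp26b1, the sum came to 0.976, 1.46 and 1.47 with anti-OSM, against 0.561, 0.565 and 0.713 with anti-Ly6G. The anti-OSM libraries were higher in both, by a small gap in the sum and a wider one in the ratio. Most of the sum is Aldh1a1, whose TPM differ more between the groups than its counts, by 0.11 on the log2 scale. Whether the small gap in the sum would remain at a common transcript length was not tested. Aldh1a1 made up 77.0%, 71.0% and 70.1% of the sum with anti-OSM, against 72.7%, 82.2% and 63.7% with anti-Ly6G, with overlap. Transcript ratios of this kind do not measure retinoic acid.

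**Figure D3:**
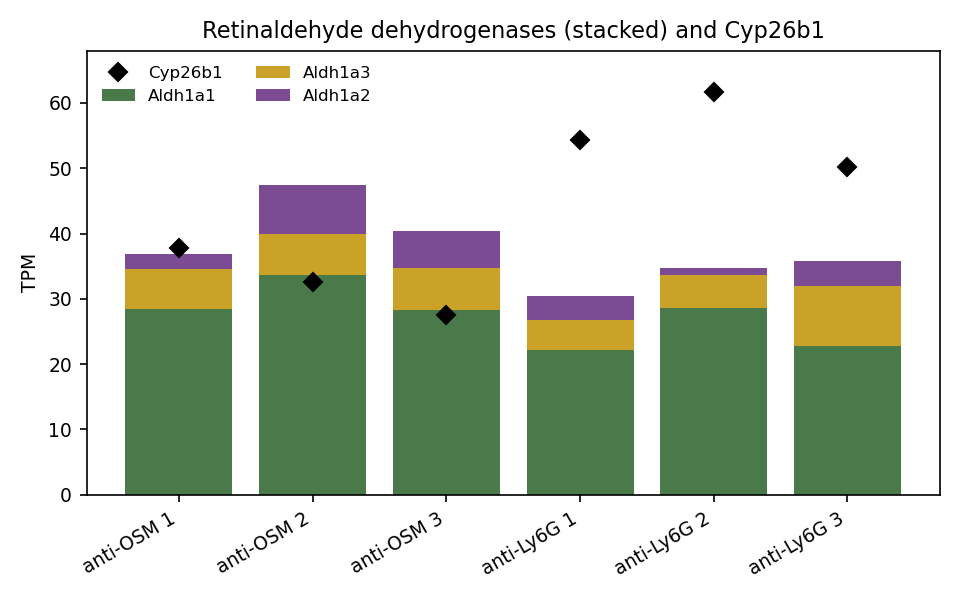
TPM of the 3 retinaldehyde dehydrogenase genes (stacked bars, from 0) and of Cyp26b1 (diamonds) in each library, anti-OSM libraries on the left. The diamonds lie at 27.5 to 37.8 TPM with anti-OSM, near or within the bars, and at 50.1 to 61.6 TPM with anti-Ly6G, above bars of 30.5 to 35.8 TPM.

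Ratios of members to their nearest relatives in function were also uneven. Crabp2 was 5.73, 6.50 and 5.99 times Crabp1, the other retinoic acid-binding protein gene, with anti-OSM, against 13.1, 12.7 and 7.44 times with anti-Ly6G, in TPM. The ratio was lower in all anti-OSM libraries, and anti-Ly6G replicate 3 was the lowest of its group. Fabp5, which encodes another carrier of retinoic acid, was 18.6, 27.0 and 32.6 times Crabp2 with anti-OSM, against 22.2, 15.7 and 22.4 times with anti-Ly6G, and these ranges overlapped. Cyp26b1 made up 76.3%, 75.05% and 78.5% of the TPM of the 3 Cyp26 genes with anti-OSM, against 79.6%, 83.8% and 81.2% with anti-Ly6G.

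Beyond the 9 members, 68 genes of the retinoid pathway were counted by role, and 61 had enough counts to be tested. With anti-OSM, 2 of the 61 rose (3.28%) and 6 fell (9.84%), beside 5.81% and 6.27% of all genes tested, and 53 did not pass. The median log2 fold change of the 61 was -0.12, and 0.01 over all genes tested. Of the 7 retinoid transport and binding genes counted, 0 passed in edgeR. At an unadjusted edgeR p under 0.05 1 of them was higher and 3 were lower, DESeq2 called 2 lower (Fabp5 and Rbp2) and limma-voom 1 (Rbp2). The most abundant were Fabp5 at -0.59 (adjusted p = 0.106) and the retinol-binding protein gene Rbp2 at -0.89 (adjusted p = 0.0742).

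In retinyl ester synthesis and hydrolysis, 1 of 7 fell (14.3%), beside 6.27% of all genes tested. Dgat1, whose product can esterify retinol besides making triglycerides, was at 66.7, 58.1 and 46.4 TPM with anti-OSM, against 97.5, 98.1 and 80.8 TPM with anti-Ly6G (log2 fold change -0.67, SE 0.13, edgeR adjusted p = 0.02). All anti-OSM libraries were below all anti-Ly6G libraries, as for Lrat. Dgat1 was 16.1 to 26.8 times Lrat with anti-OSM, against 5.64 to 7.14 times with anti-Ly6G in TPM. Awat1, a wax synthase gene of sebaceous glands (-0.72, edgeR adjusted p = 0.121), and the lipase gene Lpl (-0.11, edgeR adjusted p = 0.521) did not pass.

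Of 18 retinol oxidation and reduction genes tested, 1 was higher and 1 lower (5.56% each). These shares are near the 5.81% and 6.27% of all genes tested, so nothing is read from them about the list. Sdr16c5, a retinol dehydrogenase gene, rose to 201, 181 and 206 TPM with anti-OSM, against 160.2, 166 and 159.7 TPM with anti-Ly6G (log2 fold change 0.30, SE 0.07, edgeR adjusted p = 0.0275). Rdh11, which encodes a retinaldehyde reductase, fell to 74.7, 69.5 and 54.7 TPM with anti-OSM, against 89.2, 104.7 and 86.9 TPM with anti-Ly6G (-0.47, SE 0.11, edgeR adjusted p = 0.0314). Neither gene's groups overlapped. Sdr16c6, the most abundant of the list, had -0.28 (edgeR adjusted p = 0.294). Of 4 carotenoid genes 1 rose (25%), beside 5.81% of all genes tested. It was Bco2, a carotenoid cleaving enzyme gene (0.63, SE 0.17, edgeR adjusted p = 0.0459). Its levels were 2.24, 2.58 and 2.99 TPM with anti-OSM, against 1.51, 1.82 and 1.56 TPM with anti-Ly6G. The lipid receptor genes Cd36 (-0.22, edgeR adjusted p = 0.264) and Scarb1 (0.19, edgeR adjusted p = 0.121) did not pass.

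Neither of the 2 other breakdown genes tested and no receptor gene passed. Cyp26a1, which breaks down retinoic acid as Cyp26b1 does, had -0.30 (95% interval -0.67 to 0.07, edgeR adjusted p = 0.261) and Cyp2s1 0.07 (edgeR adjusted p = 0.763). These 2 did not pass at an unadjusted p under 0.05 either, nor in DESeq2 or limma-voom. Of 7 receptor genes 0 passed in edgeR, DESeq2 or limma-voom, and 1 had an unadjusted edgeR p under 0.05 (Ppard, -0.25). The main skin receptors Rarg (-0.15, 95% interval -0.38 to 0.08, adjusted p = 0.36) and Rxra (0.04, -0.22 to 0.29, adjusted p = 0.859) had intervals that include 0.

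The lists of general retinoic acid response genes and of genes it raises in keratinocytes held 12 genes that were tested. Of these, 4 fell in edgeR (1 of 6 and 3 of 6 by list), beside 6.27% of all genes tested. In edgeR, DESeq2 or limma-voom 0 rose, and 1 was higher at an unadjusted edgeR p under 0.05 (Ccr9). Tgm2, which encodes tissue transglutaminase, was at 38.3, 37.7 and 34.5 TPM with anti-OSM, against 54.4, 52.2 and 64.3 TPM with anti-Ly6G (log2 fold change -0.60, SE 0.09, edgeR adjusted p = 0.00724). Areg, an EGF receptor ligand gene, was at 5.67, 7.29 and 9.18 TPM with anti-OSM, against 41.1, 27.6 and 27.4 TPM with anti-Ly6G (-2.09, SE 0.24, edgeR adjusted p = 0.00444). Aqp3, a glycerol channel gene of keratinocytes, had -0.49 (SE 0.10, edgeR adjusted p = 0.0178) and Has3, a hyaluronan synthase gene, -0.95 (SE 0.19, edgeR adjusted p = 0.0248). These 4 did not overlap between groups, and all 4 also answer to signals other than retinoic acid. The other abundant genes of these lists, Rarres2 (0.33, edgeR adjusted p = 0.253), Rarres1 (-0.55, edgeR adjusted p = 0.129) and Hbegf (-0.21, edgeR adjusted p = 0.642), did not pass. Among the keratins that retinoic acid raises, Krt19 had 0.36 (edgeR adjusted p = 0.241), with every anti-OSM library above every anti-Ly6G library. Krt4 had -0.16 (edgeR adjusted p = 0.699), and Krt13 had too few counts to be tested. Of 4 differentiation genes that retinoic acid is known to lower in keratinocytes, 0 passed in edgeR, and Krt1 alone passed in DESeq2 and limma-voom and at an unadjusted edgeR p under 0.05, with Krt10 at 0.04 (adjusted p = 0.905) and Krt1 at -0.68 (adjusted p = 0.0522). Ces1g, Adh4 and Hoxb1 had 0 counts in all 6 libraries.

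**Figure D4:**
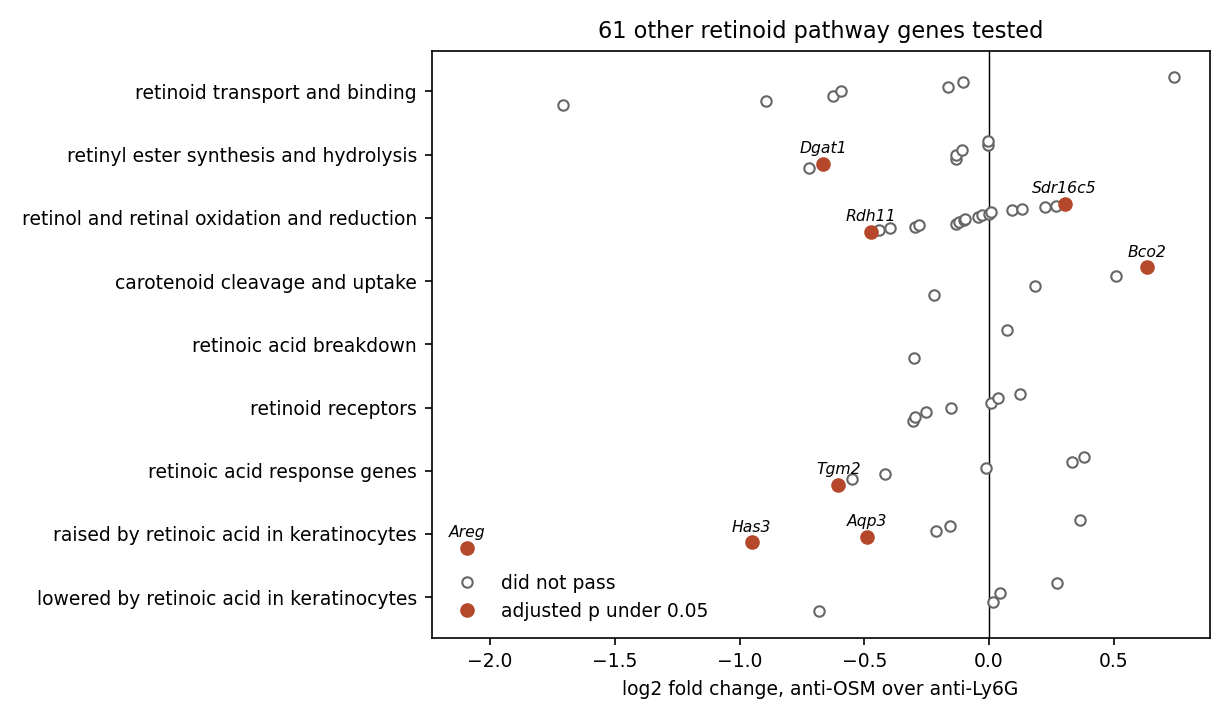
Log2 fold change of anti-OSM over anti-Ly6G for the 61 other retinoid pathway genes tested, by role, with genes of edgeR adjusted p under 0.05 filled and named. The 6 lower genes span 4 of the 9 roles, from Areg at -2.09 to Rdh11 at -0.47, and the 2 higher ones are Bco2 and Sdr16c5.

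These calls differed in how far they rested on single libraries. Only Tgm2 and Areg of the 8 called genes stayed under 0.05 in edgeR whichever library was left out (adjusted p of 0.00505 to 0.038 for Tgm2 and of 0.00262 to 0.0261 for Areg). The Dgat1 call was lost on leaving out replicate 2 or 3 of anti-OSM or replicate 1 or 2 of anti-Ly6G (edgeR adjusted p 0.0084 to 0.0706 over the 6 fits). Rdh11 lost it without any library but anti-Ly6G replicate 3 (0.0222 to 0.0943), and Sdr16c5 without any but anti-OSM replicate 2 (0.0453 to 0.114). Aqp3 lost it without replicate 1 or 3 of anti-OSM or replicate 1 of anti-Ly6G (0.00538 to 0.0736), and Has3 without replicate 1 or 2 of anti-OSM or replicate 1 of anti-Ly6G (0.0277 to 0.0825). Bco2 lost it without any 1 of the 6 libraries (0.0589 to 0.163), and also in limma-voom, with no filter on low counts and with the replicate block. DESeq2 called 12 lower rather than 6, adding Rbp2, Fabp5, Awat1, Rdh1, Rarres1 and Krt1.

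Markers of several cell types were counted in the same fit, where 5.81% of all genes tested were higher and 6.27% lower with anti-OSM. The lists are short, so 1 call in a list is not read as a change of that cell type. Of 8 activated keratinocyte genes 5 fell with anti-OSM (Krt6a, Krt6b, Krt17, Sprr1b and Sprr2h), and their TPM summed to 3159 to 5814 with anti-OSM, against 8109 to 11620 with anti-Ly6G. Basal keratinocyte genes had 2 of 6 lower, Krt14 and Itgb4. Hair follicle genes had 2 of 9 lower, Tchh and Hoxc13, with sums of 43.3 to 54.5 TPM with anti-OSM against 149 to 321 TPM with anti-Ly6G. Most of that sum was Tchh, at 31.6, 39.0 and 30.0 TPM with anti-OSM against 220, 138 and 127 TPM with anti-Ly6G. Krt71 was high in anti-Ly6G replicate 1 alone (28.2, 2.68 and 0.579 TPM with anti-Ly6G), and Lef1 (-0.008) and Msx2 (-0.255) did not pass. Sebaceous gland genes had 1 of 8 lower, with sums of 451 to 823 TPM with anti-OSM against 874 to 1102 TPM with anti-Ly6G. In the other direction, dendritic cell genes had 6 of 9 higher (669 to 722 TPM with anti-OSM against 336 to 459 TPM with anti-Ly6G), macrophage genes 3 of 6 higher (2304 to 2632 TPM with anti-OSM against 1268 to 2054 TPM with anti-Ly6G) and fibroblast genes 4 of 7 higher (5840 to 6448 TPM with anti-OSM against 3669 to 5034 TPM with anti-Ly6G), and none of these 7 lists had genes called in both directions by edgeR, DESeq2 or limma-voom. No gene of these 7 lists was at 0 in all libraries. The part of these cell types in the values of the 9 retinoid genes and of the other pathway genes was not tested.

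The genes whose log2 CPM followed each member most closely over the 6 libraries were sought among 11174 non-member genes of at least 10 CPM on average. With so few libraries and so many genes searched, r this high also arises between unrelated genes, and no test was run. For Lrat they were Tgif1 (Pearson r 0.998), Ltb4r1 (0.996) and E2f7 (0.996), and for Crabp2 Aimp2 (0.998), Col11a1 (0.998) and Jpt2 (0.996). Gprc5a was followed by Zfp462 (0.998), Mpp7 (0.997) and Ndufs7 (0.997), and Cyp26b1 by Inhbb, Tmem147 and Heatr1 (each 0.995). Because the 6 libraries fall into 2 groups, such an r carries the group difference, and 357, 318, 344 and 236 genes exceeded 0.95 for Lrat, Crabp2, Gprc5a and Cyp26b1. For the 5 members whose groups overlapped, 5 to 36 genes did. With each group centred on its own mean, which removes the group difference, the counts were 82, 38, 35 and 52 for Lrat, Crabp2, Gprc5a and Cyp26b1 and 35 to 142 for the other 5. The nearest genes were then Med4 and Utp18 (each 0.996) after the gene model LOC105244208 (0.997) for Lrat, Vps36 (0.993), Tmem62 (0.993) and Baiap2l1 (0.988) for Gprc5a, and Pnpla5 (0.999), Alcam (0.998) and Emc9 (0.996) for Cyp26b1. None of these was among the nearest without centring, so the likeness of these 3 genes depends on the measure. Without centring, those nearest to Aldh1a2 were Tbk1 (0.997), Bace2 (0.984) and Gabpa (0.984), those nearest to Aldh1a1 were Samd10 (0.994), Aldh9a1 (0.990) and Rnf167 (0.989), and those nearest to Aldh1a3 were Pkn2 (0.976), Klhl9 (0.971) and P4ha1 (0.961). Stra6 was followed by Cnot6l (0.991), Slc1a1 (0.985) and Fam220a (0.980), and Dhrs9 by Tnnt1 (0.967), Ccl7 (0.962) and Tmem185b (0.961).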

How the data were processed

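Ear skin RNA-seq values of 3 anti-OSM and 3 anti-Ly6G libraries were taken from the deposited table, where, per the file headers, each gene has read count, FPKM and TPM columns. The deposited counts are whole numbers. Read assignment to genes and any use of strand are not given in the sources used here. FPKM values as deposited were not used in any result. TPM values deposited by the authors give levels, and their ratios compare genes per length. The submitters' processing notes name HISAT2 2.1.0, StringTie 2.1.3b and edgeR 3.40.2 among others, and mm10.

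Counts were fitted with edgeR 4.0.16 in R 4.3.3 (filterByExpr, TMM, robust quasi-likelihood, 2-sided, Benjamini-Hochberg over all genes tested, threshold 0.05), with no covariate. The fit was checked on simulated counts, where it recovered 52% of 1.5-fold and 90% of 2-fold changes, and 100% of 4-fold and 8-fold ones. Of the 190 genes it called there, 19 were false, a larger share than the 0.05 threshold aims at. Calls with an adjusted p just under 0.05 are therefore to be read with caution. Standard errors are the absolute log2 fold change over the square root of F. Total counts and the floor of 3 counts bear on counting error only, to which the spread between libraries adds. Replicates differed by more than sampling noise (chi-square per gene at least 26.2), so each counted as 1. The members and lists were chosen with earlier results of these data known. Named genes are all members, every called pathway gene and the 2 of highest mean TPM in each list, and the 3 nearest genes by r. Krt4, Krt13 and Krt19 are named besides, as keratins that retinoic acid raises. Positions are from RefSeq GRCm38.p6. Alternatives were RLE and upper-quartile scaling, DESeq2 1.42.0, limma-voom (limma 3.58.1), other filters, a non-robust fit, a replicate block, log2(TPM + 1), log2(TPM + 0.1) and leaving out each library. 1 listed pathway gene is not reported here, and the list counts leave it out.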

Additional observations from a re-analysis of the deposited data

How the results depend on the processing

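Over the 9 members, 143 of 144 log2 fold changes under other scalings, tools, filters and left-out libraries moved by less than the spread between replicates, and 0 of the called ones changed sign. The exception was Lrat at -2.03 on the log2(TPM + 1) scale, where the pseudocount itself shrinks low values. This measure is lenient for left-out libraries, since leaving out 1 of 3 shifts a group mean by only part of that spread. The 143 thus include fits of Stra6 and Aldh1a3 in which the sign changed without 1 library. The number of members lower stayed at 4 under each alternative for which calls were counted, that is all but log2(TPM + 1) and log2(TPM + 0.1). The number higher was 0 to 1 over the left-out libraries, 1 being Aldh1a3 without anti-Ly6G replicate 3. Since the members were selected on this contrast in these same libraries, nothing is read from either number. Without 1 library, 240 to 1545 genes of all tested were higher and 420 to 1447 lower with anti-OSM. Every library but anti-Ly6G replicate 3 moved those counts by over 1.5 times when left out, and the cause was not tested. Of the other retinoid pathway genes, 0 to 2 were higher and 2 to 10 lower without 1 library. With limma-voom 1 was higher and with no filter 1, and DESeq2 called 12 lower. With replicate number as a replicate block, 10 were lower, and 1325 and 1275 of all genes were higher and lower. Same-numbered libraries deviated together with r of 0.0116, 0.0375 and 0.124, against -0.117 to 0.0814 for differently numbered ones. With 3 libraries per group, these values cannot say whether same-numbered libraries shared a day or batch. Stra6 had the fewest counts of the 9, 41 to 111 per library, and whether depth limits its value was not tested.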
